A study of Mus musculus with 11 samples.

Results

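The genes examined here are the mouse genes that code for 10 of the 11 proteins fused in this study to the integrase-binding domain of LEDGF (LEDGF-IBD). They are Whsc2 (NELFA), Cobra1 (NELFB), Th1l (NELFCD), Rdbp (NELFE), Supt5h (SPT5), Ints3 (INTS3), Ints9 (INTS9), Cpsf3l (INTS11), Obfc2a (NABP1) and Obfc2b (NABP2), under the symbols of the mm9 annotation. They were chosen by name, and every distinct HIV integration site inside a gene model or within 5 kb of either end was counted. The 10 windows held 502 of the 831994 distinct sites of the series, and they are 10 of 32044 annotated genes that are not pseudogenes. INIP, the other fused protein, has no gene in this list, and its gene is given beside the others near the end.

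All 11 libraries came from C57BL/6 mouse embryonic fibroblasts that lack LEDGF (LEDGF-/-), electroporated with 1 plasmid coding for a fusion protein and then infected with HIV. By the labels they differed in the protein fused: NELFA, NELFB, NELFCD or NELFE (the NELF libraries), SPT5, or INTS3, INTS9, INTS11, NABP1, NABP2 or INIP (called the Integrator libraries here, with the SOSS proteins among them). Each protein has 1 library, so no protein has replicates, and no library without a fusion protein was analysed here. The fibroblast label cannot be checked from integration positions.

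LEDGF normally tethers the HIV integrase to chromatin, so a protein that carries the integrase-binding domain can bring integration to the places where it binds. NELF and DSIF, of which SPT5 is the large subunit, hold RNA polymerase II in a pause shortly after it has started a gene. Integrator cleaves nascent RNA through its endonuclease INTS11, which pairs with INTS9, and INTS3 is shared with the SOSS complex, whose NABP1 and NABP2 bind single-stranded DNA. The comparison of each library with the others at its own gene asks whether a fusion protein directed integration to the gene that codes for it.

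Libraries held between 18753 (NELFE) and 197069 (INTS9) distinct sites, so a single site is worth between 0.507 and 5.33 sites per 100000 sites of its library, the scale used below. Counting intervals are exact Poisson intervals at 95%, shares carry exact binomial (Clopper-Pearson) intervals, and both cover counting error only. Beside a count of 0, the limit given is the value that 3 counts would have. Flow cells and lanes were read from the read names in the entries, not from the labels. Where a name gave no flow cell identifier, the run stood in for it. By these names, the 4 NELF libraries were sequenced on a flow cell with no other library, and SPT5 on one of its own. The fused family and the flow cell therefore cannot be told apart. INTS9, NABP1 and NABP2 each have 2 sequencing runs, which were added together.

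The positions that repeat between libraries show how rarely the same base was hit. At the 10 genes, 5 positions held a site on the same base and strand in 2 libraries, which is 10 of 502 sites (1.99%, interval 0.959 to 3.63), beside 1.33% over all sites. The interval takes the 10 sites as separate although they come in pairs, so it is too narrow. Each sequence below has 29 bases of the mm9 reference, read 5′ to 3′ on the named strand in the direction away from the viral end. Capitals mark the first 5 bases beyond the viral end, the stretch that HIV integration duplicates.
Obfc2a, NELFE and SPT5, chr1:51535192-51535220 (+): aaaacggcaaggCTGTTcaccaaccgcgc
Obfc2a, INTS3 and NABP1, chr1:51534521-51534549 (-): gccagaggagggTGAAAgagctccctcga
Obfc2a, NABP1 and NELFB, chr1:51533992-51534020 (+): gactagtctataGAATTgttccaggacaa
Rdbp, INTS9 and NABP1, chr17:34994709-34994737 (+): atattgtatttgGGGTGgaacaggacctc
Supt5h, INTS9 and NELFA, chr7:29126988-29127016 (+): tcggagcgtaagGAAACcacactcagggt
Obfc2a holds 3 of these 5 positions, at 39, 706 and 1239 bases after its start. The one at 39 bases lies in an annotated exon, and the Rdbp and Supt5h positions lie outside the models of those 2 genes.

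A second set is shown because Cobra1 is 1 of the 2 genes at which the library of the gene's own protein was highest. These are 4 of the 5 NELFB sites at Cobra1, at 495, 557, 613 and 923 bases after the start. All 4 lie in annotated exon sequence outside the coding region.
Cobra1, NELFB, chr2:25066502-25066530 (+): ggaaaacactcaGTTACtcagcgggtccc
Cobra1, NELFB, chr2:25066440-25066468 (+): caagtcagcacgGACACcacggatgccga
Cobra1, NELFB, chr2:25066380-25066408 (-): ccctctgcttctCCAGAcagagaatggcg
Cobra1, NELFB, chr2:25066074-25066102 (+): agctgaggaagtGTGTCtccacatgcaga
The GC content of these 4 stretches was 55.2%, 62.1%, 58.6% and 51.7%, and 3 of the 4 sites had an entry on the strand opposite to Cobra1.

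The density of integration differed widely among the 10 genes. Density is the mean over the 11 libraries, divided by the density that sites spread evenly over the sequenced genome would give. Obfc2a was highest at 15.6-fold, above 97.9% of protein-coding genes, followed by Obfc2b at 11.1-fold, Cpsf3l at 8.07-fold and Cobra1 at 6.44-fold. Supt5h at 5.39-fold, Rdbp at 4.30-fold, Ints3 at 3.76-fold and Whsc2 at 2.81-fold came next, and Th1l at 1.27-fold lay near the even density. Ints9, the longest of the 10 at 89.8 kb, was below it at 0.673-fold and above only 30.3% of protein-coding genes. The ranges over libraries overlapped for every pair of neighbours in this order.

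Over the 10 windows together, the NELF libraries had 58.2 (NELFCD), 69.3 (NELFE), 73.1 (NELFA) and 93.7 (NELFB) sites per 100000, with a mean of 73.6 ± 14.8 (SD, n = 4), and SPT5 had 86.5. The Integrator libraries ranged from 20.6 (INTS11, 7 sites) to 69.6 (INTS3), with a mean of 49.7 ± 18.8 (SD, n = 6). The 2 sides overlapped, because INTS3, NABP1 and NABP2 lay above NELFCD. Relative to even density the sums were 5.17-fold for NELF, 3.50-fold for Integrator and 6.09-fold for SPT5.

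**Figure D1:**
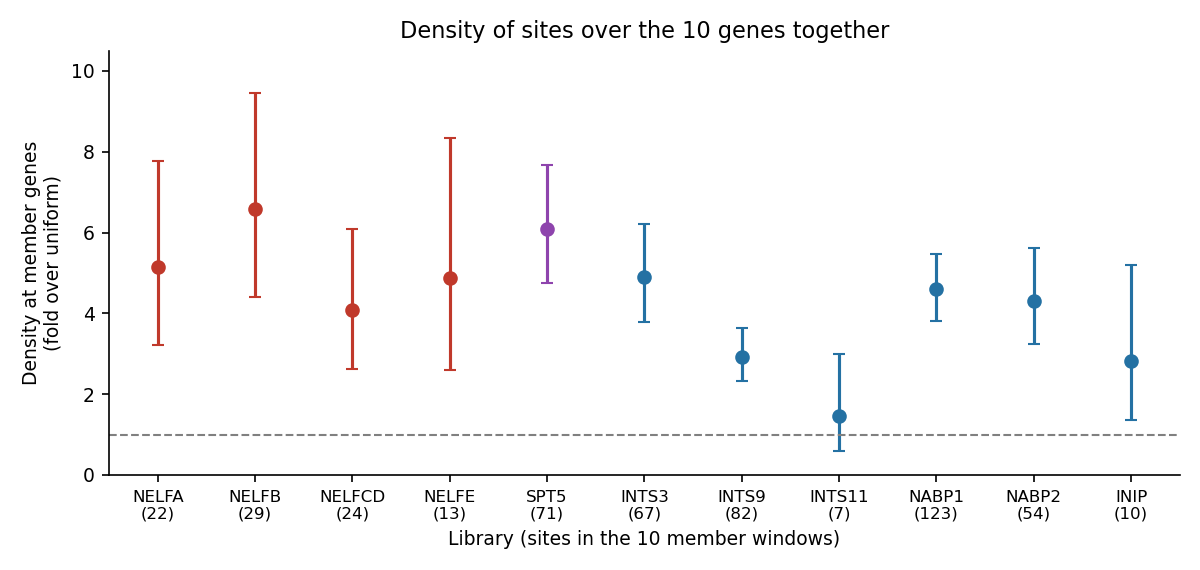
Density of sites over the 10 member genes with 5 kb on each side, by library, as the fold over even density (dashed line) with exact Poisson 95% intervals and the number of sites under each name. SPT5 (6.09-fold) and NELFB (6.59-fold) were highest, and INTS11 (1.45-fold, 7 sites) was the one library whose interval reached the even density.

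The library of the gene's own protein ranked first of 11 at 2 of the 10 genes, Cobra1 and Ints9, and was below the mean of the other 10 libraries at the remaining 8. How often a library lies below that mean over all genes was not counted, so nothing is read from the 8. Over 11119 genes, the share at which each of these 10 libraries was highest on its own lay between 2.54% and 16.2%, given beside each gene below. At Th1l and Rdbp the own library had no site at all. In an exact one-sided permutation test over the 11 possible choices of library, the smallest p that any gene can reach is 0.0909, so none can pass 0.05. The test takes the libraries as interchangeable, but they differ in depth and in how often each was highest (2.54% to 16.2%). Its p therefore only restates the place of the own library among the 11. The count of 2 became 1 with the gene model alone, with 10 kb on each side or with scaling to sites in protein-coding genes, and 0 when sites needed at least 3 reads.

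**Figure D2:**
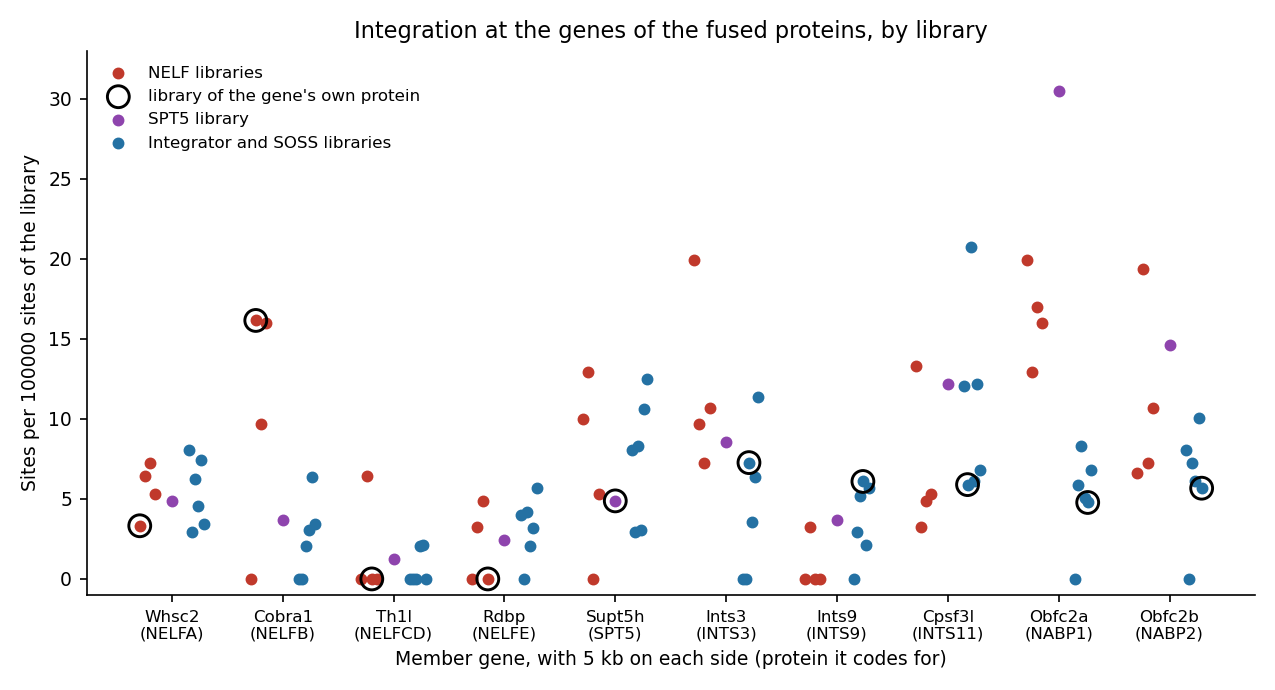
Sites per 100000 sites of each library at the 10 member genes with 5 kb on each side; each point is 1 library, coloured by side, and a ring marks the library of the gene's own protein. Ringed points are highest at Cobra1 and Ints9 and at 0 for Th1l and Rdbp, and the SPT5 point at Obfc2a (30.5) is the highest value plotted.

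Among the NELF genes, Whsc2 (chr5:34239585-34279062, minus strand), which codes for NELFA, a subunit that contacts the polymerase, held 46 sites. NELF libraries gave 3.32 (NELFA), 5.33 (NELFE), 6.46 (NELFB) and 7.27 (NELFCD) sites per 100000, SPT5 gave 4.88, and the Integrator libraries ranged from 2.95 through a median of 5.40 to 8.03. Every library had a site here, the values of the sides overlapped throughout, and NELFA was the lowest of the NELF libraries. Its single site lay 4857 bases upstream of the start, and its rank of 10 of 11 gave an exact one-sided permutation p of 0.909. As background, NELFA was highest of the 11 on its own at 12.1% of 11119 genes, those that had on average 2 sites or more in a library. Whsc1 overlaps this window, and 4 of the 46 sites lay inside its model.

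Cobra1 (chr2:25055232-25067009, minus strand) codes for NELFB, the NELF subunit also known as cofactor of BRCA1. Its 38 sites gave 16.1 sites per 100000 for NELFB (5 sites, interval 5.24 to 37.7), 16.0 for NELFE (3 sites), 9.69 for NELFCD and 0 for NELFA. SPT5 gave 3.66, and the Integrator libraries ranged from 0 through 2.56 to 6.37. NELFB was thus highest, but NELFE differed from it by far less than either interval, and the next library off the NELF flow cell was NABP1. NELFB held 13.2% of the sites at this gene and 3.72% of all sites, and its exact one-sided permutation p was 0.0909, the smallest possible. All 5 NELFB sites lay inside the gene model, and in the model alone the next library was SPT5 at 3.66. As background, NELFB was highest at 11.9% of the 11119 genes. The genes A830007P12Rik and 4933433C11Rik start inside the window, and 8 sites, 3 of them from NELF libraries and none from NELFB's own 5, lay within 1 kb of the former start.

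Th1l (chr2:174241305-174253003, plus strand), which codes for NELFCD, held the fewest sites, 11 in all from 4 libraries. NELFB gave 6.46 sites per 100000 (2 sites) and the other 3 NELF libraries 0, SPT5 gave 1.22, and INTS9 and NABP1, the deepest libraries, gave 2.03 and 2.12. The other 4 Integrator libraries were at 0. For NELFCD the count of 0 (taken as at most 3 sites) allows up to 7.27 sites per 100000, above every value seen at this gene, so a difference was not detectable at this depth (exact one-sided permutation p = 1). NELFCD was highest at 9.21% of the 11119 genes. Ctsz overlaps the window, with 2 sites in its model.

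Rdbp (chr17:34987336-34993317, plus strand), which codes for NELFE, the RNA-binding subunit, held 25 sites. NELFCD gave 4.85 sites per 100000, NELFB 3.23, NELFA and NELFE 0, and SPT5 2.44. Integrator libraries ranged from 0 (INTS11) through a median of 3.60 to 5.67 (NABP2). NELFE, the smallest library, could have had up to 16.0 sites per 100000 (3 sites) with a count of 0, again above all values seen (exact one-sided permutation p = 1), and it was highest at 12.8% of the 11119 genes. Skiv2l starts 181 bases from Rdbp on the other strand, and 8 of the 9 sites within 1 kb of the start of Rdbp were also that close to the start of Skiv2l. Models of Cfb and Gm20547 overlap the far end and each other, and the same 7 sites lay in both.

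Supt5h (chr7:29099917-29123738, minus strand) codes for SPT5 and held 60 sites. SPT5 gave 4.88 sites per 100000 (4 sites, interval 1.33 to 12.5), while NELF libraries gave 0 (NELFCD), 5.33 (NELFE), 9.96 (NELFA) and 12.9 (NELFB). The Integrator libraries ranged from 2.95 through 8.17 to 12.5, with NABP2 highest at 11 sites. SPT5 was in the lower part of this range, at rank 8 of 11 with an exact one-sided permutation p of 0.727, and it was highest at 16.2% of the 11119 genes. Of the 4 SPT5 sites, 3 lay within 1 kb of the start and 1 past the end of the gene.

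The sites of Supt5h were concentrated in a stretch from 1 to 7 kb after the start, chosen after its values were seen, which held 34 of the 60. All 11 NABP2 sites and 13 of the 20 NABP1 sites lay there, against 4 of the 8 NELF sites and 0 of the 4 SPT5 sites. At the same distance from the start of Obfc2a lay 12 of 25 SPT5 sites and 30 of 80 sites in all. The remaining genes had lower shares of their sites there, from 4 of 84 at Cpsf3l to 7 of 25 at Rdbp. Because the stretch was picked from the Supt5h sites, the higher share at Supt5h was built into the choice. The stretch also takes up a different part of each window, which is 33.8 kb long at Supt5h, 29.6 kb at Cpsf3l and 16.0 kb at Rdbp. Of the 20 NABP1 sites at Supt5h, 12 came from a run on a flow cell without NABP2 (14.5 sites per 100000) and 8 from the run that shared a lane with NABP2 (7.56). INTS9 on that same flow cell gave 3.40. Timm50 lies past the end of Supt5h and held 2 sites.

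Ints3 (chr3:90195310-90237558, minus strand), which codes for the scaffold of SOSS, held 57 sites. NELF libraries gave 7.27 (NELFCD), 9.69 (NELFB), 10.7 (NELFE) and 19.9 (NELFA) sites per 100000, and SPT5 gave 8.53. INTS3 itself gave 7.27 (7 sites, interval 2.92 to 15.0), and the other Integrator libraries ran from 0 (INIP and INTS11) to 11.3 (NABP2). INTS3 was thus just below NELFCD, the lowest NELF library, and within the range of its own side, at rank 7 of 11 with an exact one-sided permutation p of 0.636, and it was highest at 5.24% of the 11119 genes. On its flow cell, INIP and the smaller run of NABP2 had no site, which allows up to 12.04 and 19.6 sites per 100000, so a difference from INTS3 was not detectable there. None of its 7 sites lay within 1 kb of the start, while 6 of the 14 NELF sites did. The neighbour Slc27a3 held 4 sites.

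Ints9 (chr14:65568882-65658663, plus strand) codes for the partner of the Integrator endonuclease and held 31 sites. INTS9 gave 6.09 sites per 100000 (12 sites, interval 3.15 to 10.6), followed by NABP2 at 5.67 and INTS3 at 5.19. The other Integrator libraries gave 0 (INIP), 2.12 (NABP1) and 2.95 (INTS11), SPT5 gave 3.66, and of the NELF libraries only NELFB had a site (3.23). INTS9 was highest by a margin far inside its interval, with 38.7% of the sites at the gene against 23.7% of all sites and an exact one-sided permutation p of 0.0909, the smallest possible. INTS9 was highest on its own at 2.54% of the 11119 genes. Within the flow cell of its larger run, INTS9 (5.09) was below NABP2 (5.49) and above NABP1 (0.945), and in its smaller run 3 sites gave 14.7 beside 2.95 for INTS11. The 12 sites were spread over the gene, from 1910 bases upstream of the start to 91630 bases after it. Hmbox1 starts 198 bases away on the other strand and held 4 sites in its model.

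Cpsf3l (chr4:155243655-155263212, plus strand), which codes for the endonuclease INTS11, had the most sites of the 10 genes, 84, with at least 1 in every library. NELF libraries gave 3.23 (NELFB), 4.85 (NELFCD), 5.33 (NELFE) and 13.3 (NELFA) sites per 100000, and SPT5 gave 12.2. Integrator libraries ranged from 5.89 (INTS11 itself, 2 sites) through a median of 9.42 to 20.8 (INTS3, 20 sites). INTS11 was thus the lowest of its side, at rank 8 of 11 with an exact one-sided permutation p of 0.727, and it was highest at 7.24% of the 11119 genes. On its flow cell it stood at 5.89 beside 4.89 for the small INTS9 run. NABP1 gave 19.3 in one of its runs and 6.62 in the other.

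Both INTS11 sites lay past the end of Cpsf3l, where the starts of Pusl1 and Acap3 lie. Past the end were 28 of the 84 sites, with 13 within 1 kb of the start of Acap3, and 5 of the 8 NELF sites were among these 13. Gltpd1 starts 106 bases from Cpsf3l on the other strand, and all 12 sites within 1 kb of the start of Cpsf3l were within 1 kb of the start of Gltpd1 too. The window therefore holds sites of several genes that the count cannot assign.

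Obfc2a (chr1:51526342-51535243, minus strand), which codes for NABP1, a single-stranded DNA-binding protein of SOSS, held 80 sites. NELF libraries gave 12.9 (NELFB), 16.0 (NELFE), 17.0 (NELFCD) and 19.9 (NELFA) sites per 100000, a mean of 16.5 ± 2.89 (SD, n = 4). SPT5 gave 30.5 (25 sites, interval 19.7 to 45.0). The Integrator libraries gave 0 (INIP), 4.78 (NABP1 itself), 5.07 (INTS9), 5.89 (INTS11), 6.80 (NABP2) and 8.31 (INTS3), a mean of 5.14 ± 2.83 (SD, n = 6). Obfc2a was the one gene of the 10 at which every NELF library lay above every Integrator library, which held for 3.34% of the 11119 genes.

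At Obfc2a the NABP1 library had 9 sites (interval 2.18 to 9.07), at rank 10 of 11 with an exact one-sided permutation p of 0.909. It gave 4.83 and 4.73 in its 2 runs, beside 5.66 for INTS9 and 6.86 for NABP2 on the flow cell of the second. NABP1 was highest at 3.2% of the 11119 genes. Sites gathered at the start: 35 of the 80 lay within 1 kb of it, and 14 sites from 8 libraries lay in the first 500 bases, between 17 and 360 bases, all in annotated exon. No other protein-coding gene model overlaps this window.

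Obfc2b (chr10:127838451-127848548, minus strand), which codes for NABP2, the related single-stranded DNA-binding protein, held 70 sites. NELF libraries gave 6.64 (NELFA), 7.27 (NELFCD), 10.7 (NELFE) and 19.4 (NELFB) sites per 100000, and SPT5 gave 14.6. Integrator libraries ranged from 0 (INTS11) through a median of 6.68 to 10.1 (NABP1). NABP2 gave 5.67 (5 sites, interval 1.84 to 13.2), at rank 10 of 11 with an exact one-sided permutation p of 0.909, and it was highest at 10.7% of the 11119 genes. On the flow cell of its larger run it stood at 6.86 beside 6.79 for INTS9 and 7.56 for NABP1, and its smaller run had 0 sites beside 8.03 for INIP and 7.27 for INTS3. That count of 0 allows up to 19.6 sites per 100000, so a difference was not detectable in the smaller run. Rnf41 starts 124 bases away on the other strand, and all 30 sites within 1 kb of the start of Obfc2b were within 1 kb of that start too. Models of Ankrd52 and Slc39a5 overlap the window with 10 and 5 sites, the 5 being among the 10.

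NELF and Integrator libraries were compared at these genes with limma, fitted on the same 11119 genes. Of the 10 genes, 9 were tested, since Th1l had too few sites, and none passed a Benjamini-Hochberg adjusted p of 0.05 in either direction. Over all genes 120 (1.08%) were higher and 30 (0.27%) lower in the NELF libraries by this rule. The median log2 difference was 0.06 over the 9 genes and -0.09 over all genes tested.

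Obfc2a had log2 values 1.76 higher in NELF (SE 0.59, limma adjusted p = 0.14). Ints3 stood at 1.64 (SE 0.71, limma adjusted p = 0.285) and Cobra1 at 1.46 (SE 0.78, limma adjusted p = 0.427). These 2 genes had overlapping sides: at Ints3, NABP2 (11.3) lay above 3 of the 4 NELF libraries, and at Cobra1, NELFA had no site. Without NELFA the difference at Cobra1 was 2.43 (limma adjusted p = 0.134). Ints9 stood at -1.45 (SE 0.77, limma adjusted p = 0.418), with 3 of the 4 NELF libraries at 0. The limits of 3 counts in those libraries lay above every value at Ints9. Obfc2b stood at 0.93, Whsc2 at 0.06, Supt5h at -0.47, Cpsf3l at -0.63 and Rdbp at -0.69, all with limma adjusted p between 0.555 and 0.979. The sign at Supt5h turned without NELFCD (0.36), and the sign at Whsc2 turned without NELFB, NELFCD, INTS11 or NABP2. At an unadjusted p of 0.05, Obfc2a and Ints3 would pass in limma, as would 13.1% of all genes tested. An exact two-sided permutation test over the 210 splits of 4 and 6 libraries put 1 of the 9, Obfc2a, and 12.9% of all genes below an unadjusted p of 0.05. Its smallest p is 0.0048, so an adjusted call needs at least 1059 genes at or near that p, and it made 0 adjusted calls.

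NELF sites at these genes lay closer to the starts than Integrator sites. Within the 10 windows, 54.5% of NELF sites (48 of 88, interval 43.6 to 65.2) and 18.1% of Integrator sites (62 of 343, interval 14.1 to 22.6) lay within 1 kb of the start of the gene. SPT5 stood at 42.3% (30 of 71, interval 30.6 to 54.6). Within 2 kb the shares were 60.2% for NELF, 31.5% for Integrator and 60.6% for SPT5. Each of the NELF libraries (38.5% to 58.6%) was above each of the Integrator libraries (0 to 30.0%). Over all protein-coding genes the same shares were 26.4% for NELF, 9.80% for Integrator and 26.4% for SPT5. Thus the order of NELF and Integrator was the one seen over all genes, at a higher level in these windows. The level also depends on window length, which was not matched between the 10 genes and all protein-coding genes. No test was made of the share over the 10 genes.

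**Figure D3:**
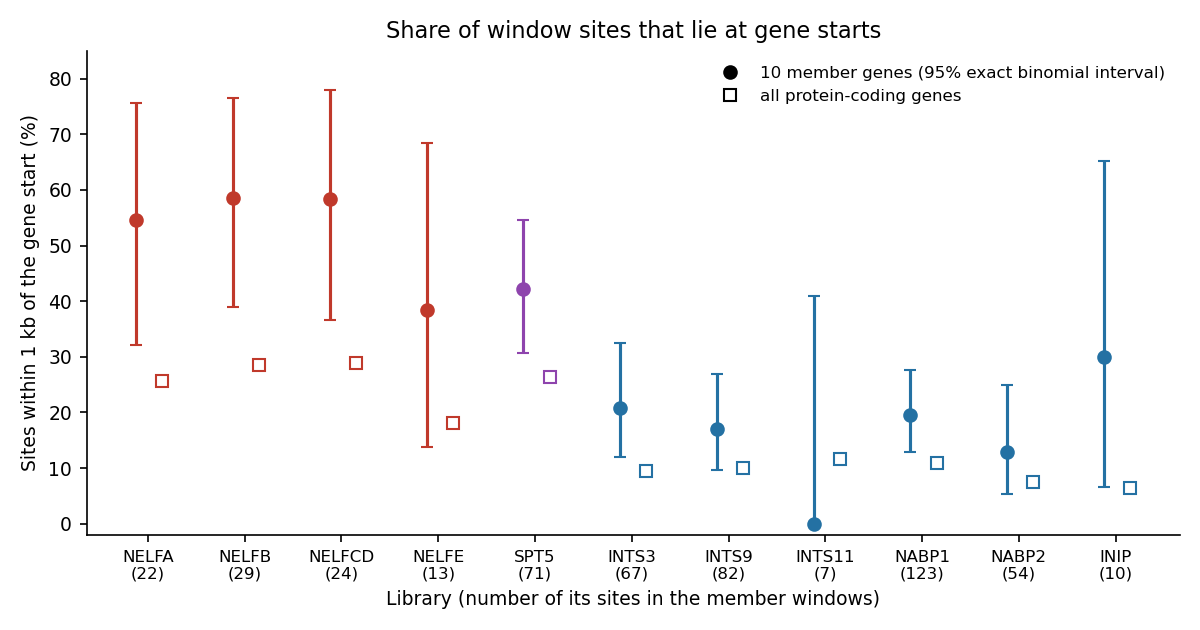
Share of the sites in the gene windows that lie within 1 kb of the gene's start, by library, for the 10 member genes (filled circles, exact binomial 95% intervals, number of sites under each name) and for all protein-coding genes (open squares). The NELF circles lie between 38.5% and 58.6% and the Integrator circles between 0 and 30.0%, and each circle but that of INTS11 (0 of 7) lies above its square. Window lengths were not matched between circles and squares.

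The share near the start varied by gene. At Obfc2b, 92.3% of NELF sites (12 of 13) lay within 1 kb of the start against 24.4% of Integrator sites (11 of 45), and at Obfc2a 70.0% (14 of 20) against 34.3% (12 of 35). Whsc2 had 4 of 7 NELF sites there against 7 of 35 Integrator sites, Cobra1 6 of 12 against 3 of 23, and Ints3 6 of 14 against 8 of 36. Over the 10 genes, the NELF share was higher at 8, lower at 1 (Th1l, 0 of 2 against 1 of 8) and equal at 1 (Ints9). Some of the 8 rest on few NELF sites and have overlapping intervals. These include Rdbp (2 of 3 against 6 of 20), Supt5h (2 of 8 against 6 of 48) and Cpsf3l (2 of 8 against 8 of 66). This tally was not made over all genes, where the pooled shares had the same direction (26.4% against 9.80%). At Ints9 no library had a site within 1 kb of the start: 0 of 31 sites, which allows a share of up to 9.68% (3 sites). The window of a start takes up between 2.01% (Ints9) and 12.5% (Rdbp) of a gene's window. In 4 of the 10 genes (Rdbp, Ints9, Cpsf3l and Obfc2b) a divergent neighbour starts within 1 kb, and 51 of the 140 sites near starts belong to these genes.

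**Figure D4:**
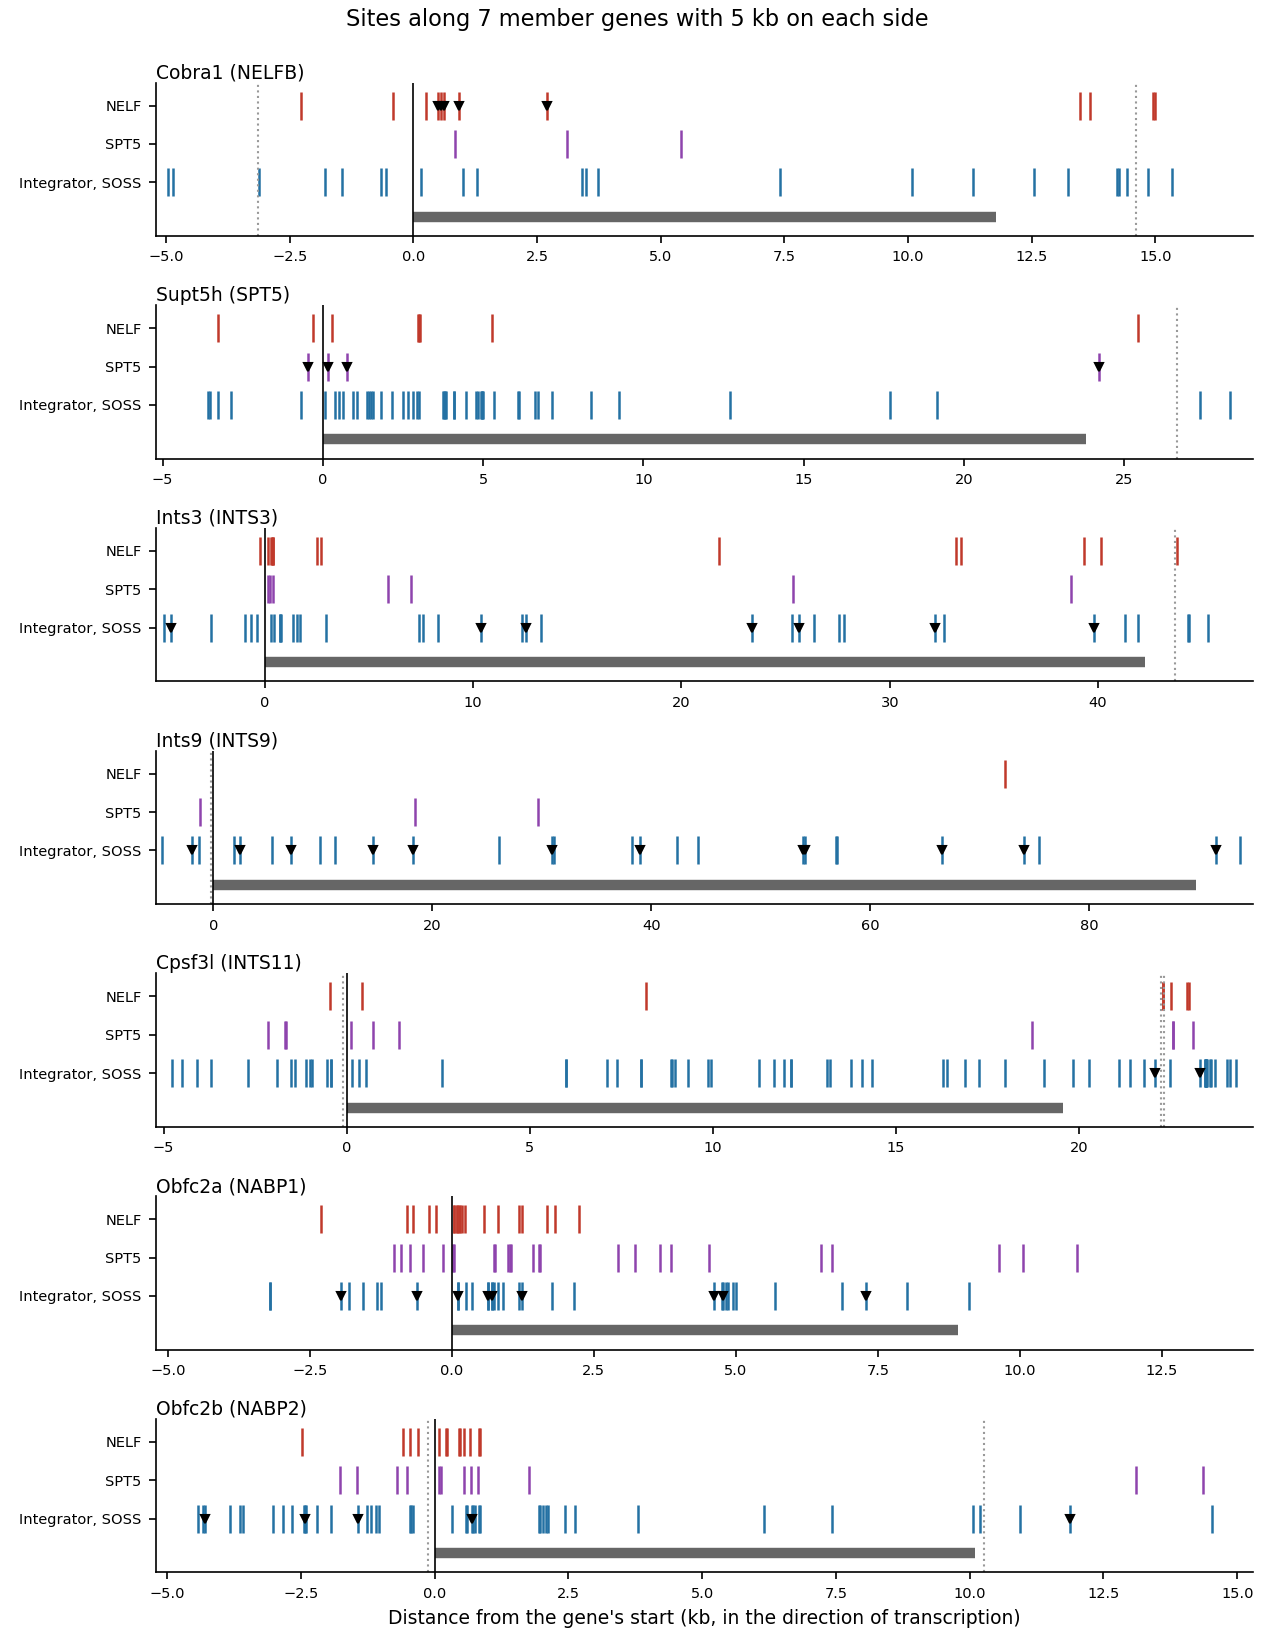
Sites along 7 of the 10 genes, as distance in kb from the gene's start in the direction of transcription, with 1 tick per site in rows for the NELF, SPT5 and Integrator libraries, a grey bar for the gene model, dotted lines for starts of neighbouring protein-coding genes and triangles for sites of the library of the gene's own protein. NELF ticks gather at the starts of Obfc2a and Obfc2b, 4 of the 5 NELFB triangles lie in the first 1 kb of Cobra1, and the INTS9 triangles are spread along Ints9.

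A fusion plasmid carries coding sequence of its protein, so sites of the own library in exons were counted apart; the labels do not give the species of the cDNA. Of 31 own-library sites inside the gene models, 8 (25.8%) lay in an exon and 2 (6.45%) in coding sequence. For the other libraries it was 72 of 285 (25.3%) and 20 of 285 (7.02%). These sums mix genes that differ. The own exon share was higher at Cobra1 (4 of 5 against 5 of 13) and Ints9 (1 of 10 against 0 of 15). It was lower at Ints3 (1 of 6 against 16 of 40) and Obfc2a (2 of 7 against 19 of 51). At Supt5h (0 of 2 against 3 of 46) and Obfc2b (0 of 1 against 15 of 33) it was lower too. The 2 coding sites were 1 of INTS3 in Ints3 and 1 of INTS9 in Ints9, and the 4 exonic NELFB sites in Cobra1 were all outside coding sequence. Of the 316 sites inside the models, 146 (46.2%, interval 40.6 to 51.9) had an entry on the same strand as the gene, called sense here. That interval includes equal shares. Which viral end was read was not established here, so the strand is not taken as the direction of the provirus. Of the 10 genes taken singly, Whsc2 alone had an interval that did not, with 8 of 28 sites in sense (28.6%, interval 13.2 to 48.7). The intervals of the 10 genes were not adjusted for their number. The share of all genes with such an interval was not counted, so no bias at Whsc2 is read from it.

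Other genes of the same machinery were compared in the same fit. Of 20 listed genes of Integrator, DSIF, the elongation factors and RNA polymerase II, with the gene of INIP among them, 18 were in the annotation under the listed symbols, 14 could be tested, and 0 passed in either direction, with 2 below an unadjusted limma p of 0.05, close to the 13.1% of all genes. These 2 were Ints6 (log2 difference 1.72, limma adjusted p = 0.0923) and Ints5 (1.68, limma adjusted p = 0.19). The 3 with the most sites were Polr2a, which codes for the largest subunit of RNA polymerase II, with 240 sites, Ccnt1, the cyclin partner of the elongation kinase, with 161, and Ints5 with 101. That of INIP, annotated as 1110054O05Rik, held 34 sites, with 3.78 ± 2.83 (SD, n = 4) sites per 100000 in NELF libraries, 3.53 ± 2.25 (SD, n = 6) in Integrator libraries and 4.88 in SPT5. Its log2 difference was -0.03 (limma adjusted p = 0.993).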

How the data were processed

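Per the file headers, each deposited entry is neither a count nor a signal but another kind of value: the 0-based position of the first genomic base beyond the viral long terminal repeat, with its strand. Junctions were amplified by linker-mediated nested PCR, per the labels' protocols, and the genome build was mm9, as the submitters' processing notes state. No source used here names the aligner or the read filters. Entries (873534) that shared chromosome, position and strand within a library were counted once, which left 831994 sites. Each entry also has 2 numbers whose meaning is not stated. The first was read as reads in 1 alternative only. Genes came from GENCODE on the same assembly, and printed coordinates are 1-based.

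Values are sites per 100000 sites of a library. NELF (4 libraries) and Integrator (6) were compared with limma 3.58.1 (trend and robust settings, R 4.3.3) on log2 of that value plus a pseudocount of 1, for genes averaging 2 sites or more per library, and adjusted p-values cover all 11119 genes. Subunits stand in for replicates, so p-values measure the spread between subunits. Even density covers the 2555806925 sequenced bases. Named genes are all 10 genes, protein-coding genes overlapping their windows, and, of the listed other genes, the 3 with the most sites, since none passed; Ints6 and Ints5 were named for their unadjusted p, seen in the data. A rule for genes of like pattern needed a mean of 10 sites and applied to 0 of the 10. The genes and lists were chosen with earlier results of these data known.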

Additional observations from a re-analysis of the deposited data

Results flagged for a closer look

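In 2 of 20 groups checked (each gene in the NELF and in the Integrator libraries), 1 library stood apart from the rest of its group by the gap between values. The critical value is one that chance passes in about 1 in 20 groups, and where 3 of 4 libraries are at 0 the gap is the whole range whatever the count. At Th1l, NELFB had 6.46 sites per 100000 where the other 3 NELF libraries had 0. At Ints9, NELFB had 3.23 where the other 3 had 0. These values rest on 2 sites and 1 site.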

How the results depend on the processing

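The number of genes at which the own library was highest was 2 and stayed 2 with every entry counted and with sites within 5 bases merged. It was 1 for the gene model alone, 1 with 10 kb on each side, 1 when scaled to sites in protein-coding genes, and 0 with at least 3 reads per site. INIP (8.03) passed INTS9 at Ints9 with 10 kb, INTS3 (5.19) passed INTS9 (5.07) at Ints9 for the gene model alone, and NELFE passed NELFB at Cobra1 when scaled (23.8 against 23.1) and with 3 reads (19.0 against 18.0). At Ints3, own minus the mean of the others turned from -0.467 to 0.0239 for the gene model alone and 0.0848 with 10 kb. No gene of the 10 was called in any limma alternative run, and a mean of at least 10 sites left none to test. For the gene model alone, Cobra1 and Rdbp, like Th1l, had too few sites to test. The ranges of Cobra1 and Rdbp below leave that setting out. Over all genes, 150 were called, against 87 for the gene model alone (38 higher, 49 lower), 98 and 259 with pseudocounts of 0.5 and 5, 95 with a mean of at least 10 sites, and 0 by permutation (1433 before adjustment). The difference at Whsc2 turned from 0.06 to -0.63 for the gene model alone and -0.041 with 10 kb, and it lay between -0.063 and 0.25 with 1 library left out at a time. Supt5h turned from -0.47 to 0.36 without NELFCD, within a range of -0.91 to 0.36. Cobra1 ranged from 0.91 to 2.43, Ints3 from 0.88 to 1.98, Obfc2b from 0.42 to 1.47, Rdbp from -1.16 to -0.25, Cpsf3l from -1.25 to -0.39 and Ints9 from -2.09 to -0.56, so the order of the genes by size of difference changed with the setting. The Obfc2a difference ranged from 1.13 to 2.002 (limma adjusted p 0.0638 to 0.312). The Integrator share near starts was 31.5% within 2 kb of starts, and that of SPT5 (60.6%) then exceeded that of NELF (60.2%). Depth limits these values: at the 10 genes the NELF values rest on 0 to 7 sites per library.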
